A study of Homo sapiens with 16 samples.

Results

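The nuclear genome encodes most subunits of the 4 proton-pumping or electron-feeding complexes of the mitochondrial respiratory chain, complexes I to IV. The 57 genes described here were the rows of the deposited count table whose symbol is one of 57 listed subunits, 35 of complex I, 4 of complex II, 7 of complex III and 11 of complex IV, out of 26475 rows. All 57 were in the table, and all passed the filter on low counts, as did 16012 genes in all. The list holds NDUFA4 under complex IV, and it leaves out some subunits that are in the table, among them NDUFA11, UQCR10 and UQCR11, for which no values are given.

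The libraries were poly-A RNA from A375 MA2-Luc, an established human melanoma cell line that carries luciferase, taken from lung metastases in NSG mice, which lack T, B and NK cells. Each mouse had received 250000 cells by retro-orbital injection. The 4 groups of 4 libraries were ketogenic diet with BRAF-kinase and MEK 1/2 inhibitors, high fat diet with the same inhibitors, ketogenic diet without inhibitors, and high fat diet without inhibitors. The inhibitors were given by oral gavage 3 times per week for 5 weeks, and drug names and doses are not given here. The groups without inhibitors are called untreated here. No vehicle or gavage is given for them, so gavage and inhibitors cannot be told apart. Separate mice for the libraries are not stated, and the series text mentions culture besides lung, so a p-value measures the spread between these libraries, which may be technical. All groups share the one line and the host strain.

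Complex I takes electrons from NADH and complex II takes them from succinate, both passing them to ubiquinone. Complex III moves them from ubiquinol to cytochrome c, and complex IV moves them from cytochrome c to oxygen, while complexes I, III and IV pump protons that drive ATP synthase. Complex I is built from an N module that oxidises NADH, a Q module that reduces ubiquinone, and a proximal and a distal arm in the membrane. Melanoma cells that survive BRAF-pathway inhibition are known for a reliance on oxidative phosphorylation, with the coactivator PGC-1alpha (PPARGC1A) as a regulator in part of the tumours. NRF1, GABPA and other ETS factors, and YY1 are known activators of the nuclear genes for the chain.

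The promoters shown are those of NDUFS6 and UQCRQ, which rose with inhibitors on the high fat diet, of UQCRC2, which fell, and of COX6A1 and NDUFB4, picked for the matches they hold. Each run is the 250 bases before the RefSeq start of the gene on GRCh38.p14, read 5′ to 3′ on the plus strand, at chr5:1801157-1801406 for NDUFS6, chr5:132866392-132866641 for UQCRQ, chr16:21953111-21953360 for UQCRC2, chr12:120437863-120438112 for COX6A1 and chr3:120596086-120596335 for NDUFB4. Capitals mark matches to GCGCANGCG (NRF1) or CCGGAAG (ETS factors and GABPA) on either strand.
NDUFS6: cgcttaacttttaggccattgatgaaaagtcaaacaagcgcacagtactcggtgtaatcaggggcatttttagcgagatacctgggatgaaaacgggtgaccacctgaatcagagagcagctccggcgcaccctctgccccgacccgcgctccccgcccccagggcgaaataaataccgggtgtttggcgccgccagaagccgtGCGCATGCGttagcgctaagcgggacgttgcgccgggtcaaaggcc
UQCRQ: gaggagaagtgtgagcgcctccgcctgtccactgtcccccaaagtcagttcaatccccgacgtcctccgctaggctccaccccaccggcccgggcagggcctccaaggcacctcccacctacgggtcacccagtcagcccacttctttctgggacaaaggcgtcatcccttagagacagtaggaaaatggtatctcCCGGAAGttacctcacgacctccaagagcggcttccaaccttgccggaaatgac
UQCRC2: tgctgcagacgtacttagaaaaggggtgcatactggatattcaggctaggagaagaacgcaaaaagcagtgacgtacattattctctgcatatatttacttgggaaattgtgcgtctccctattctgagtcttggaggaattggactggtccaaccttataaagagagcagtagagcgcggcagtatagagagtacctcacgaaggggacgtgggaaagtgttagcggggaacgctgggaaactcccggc
COX6A1: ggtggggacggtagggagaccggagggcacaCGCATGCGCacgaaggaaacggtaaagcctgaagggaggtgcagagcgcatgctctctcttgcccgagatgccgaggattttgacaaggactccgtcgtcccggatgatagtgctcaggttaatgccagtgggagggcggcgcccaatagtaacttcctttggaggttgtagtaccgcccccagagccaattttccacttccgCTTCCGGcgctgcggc
NDUFB4: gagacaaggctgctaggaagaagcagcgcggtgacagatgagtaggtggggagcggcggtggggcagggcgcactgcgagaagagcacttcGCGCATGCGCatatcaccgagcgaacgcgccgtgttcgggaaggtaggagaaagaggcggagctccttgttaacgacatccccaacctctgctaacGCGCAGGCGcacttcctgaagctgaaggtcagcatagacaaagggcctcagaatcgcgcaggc
NDUFS6 holds 1 NRF1 match and UQCRQ 1 ETS match. COX6A1 holds 1 of each, NDUFB4 holds 3 NRF1 matches of which 2 overlap on opposite strands, and UQCRC2 holds none of the letters searched. In GENCODE 29 UQCRC2 starts at 21952660, so its run lies inside the gene there, while the other runs span their GENCODE starts. Sequence before that start of UQCRC2 was not searched. Of 48 members with a promoter in the RefSeq table, 12 (25%) held the NRF1 letters, against 1918 of 27305 promoters (7.02%). The ETS letters were in 13 members (27.1%), against 8.82% of all promoters. The YY1 letters ANATGGCG were in 1 member (2.08%), against 2.32% of all promoters. At least 1 of the 3 was in 24 members (50%), against 16.2% of all promoters. Among members with a promoter, the NRF1 letters were in 6 of the 23 that rose under inhibitors in the high fat comparison and in 6 of the 23 that did not pass the test. The ETS letters were in 6 and 7 of the same genes, so the matches were about as frequent in both sets. NDUFA4, COX6C, UQCRB, SDHC, CYC1, NDUFC2, NDUFB9, NDUFS5 and NDUFB5 had no entry in that table.

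Depth was 37.1 to 77.3 M (mega) estimated counts in a library, and every member had counts in all 16. Levels are CPM, a gene's counts relative to the library total, on totals scaled by TMM, a method that takes most genes as not changed. Per kilobase of transcript, the highest mean levels over the 16 libraries were 454 CPM for UQCRH, 377 CPM for SDHC and 307 CPM for COX4I1. The lowest were 7.08 CPM for NDUFV3, 11.7 CPM for NDUFA9 and 22.9 CPM for UQCRFS1. These ranks depend on the median length of annotated transcripts, 460 bases for SDHC and 4502.5 bases for NDUFA9. Which transcripts were expressed was not determined. Ribosomal RNA genes held 4.10 to 8.37% of counts in ketogenic libraries with inhibitors, 15.01 to 19.97% in high fat libraries with inhibitors, 15.2 to 33.7% in untreated ketogenic libraries and 21.7 to 50.01% in untreated high fat libraries. On each diet the shares with inhibitors all lay below those without. Fits with this share as a covariate therefore cannot tell the share and the inhibitors apart. The 10 melanocyte markers summed to between 1040 and 1284 CPM in every library, led by SOX10 with a mean of 797 CPM, while the pigment genes MLANA, TYRP1 and TYR averaged 0.222, 0.134 and 0.878 CPM. Brown fat markers had no counts, the muscle list summed to at most 0.433 CPM and the lung epithelium list to at most 2.97 CPM. These are human genes and the host is a mouse, so low values do not measure how much host tissue a library held. In bulk RNA, a smaller share of a cell type and less RNA per cell cannot be told apart.

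On the members, 3 libraries stood apart. Ketogenic replicate 4 with inhibitors was the highest of its group for 51 of 57 members and the highest of all 16 libraries for 39. High fat replicate 3 with inhibitors was the highest of its group for 44, and untreated high fat replicate 1 for 51. In these libraries, genes with short transcripts deviated upward from the group mean, with Spearman correlations to transcript length of -0.47, -0.28 and -0.31 over 13610 genes, in that order. Ketogenic replicates 2 and 3 with inhibitors deviated the other way, with correlations of 0.45 and 0.47. The members are short, with a median transcript of 715.5 bases against 2336 bases for all genes with a length. The part of transcript length in the fold changes was not tested. Across the 57 members the fold change with inhibitors on the high fat diet had a Spearman correlation of -0.29 with length, and that on the ketogenic diet one of -0.39. Over all 13610 genes with a length these correlations were -0.065 and -0.24, all given as a description over genes that share libraries.

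Summed over the 57 members, ketogenic libraries with inhibitors held 5229, 4804, 4565 and 6789 CPM, and high fat libraries with inhibitors 4755, 4874, 5730.0 and 4749.9 CPM. Untreated ketogenic libraries held 5065, 4912, 4690.3 and 4767 CPM, and untreated high fat libraries 4835, 4062, 4131 and 3857 CPM. Replicates 2, 3 and 4 of the untreated high fat group were the lowest of the 16, and replicate 1 lay within the range of the other groups. For 21 members all 4 untreated high fat libraries lay below the 12 others, against 6.29% of all genes tested, and for 0 members all 4 lay above, against 5.18%. The 21 were 14 of complex I, 1 of complex II (SDHC), 1 of complex III (UQCRQ) and 5 of complex IV (NDUFA4, COX6A1, COX6C, COX7B and COX8A). Both comparisons that set a group against the untreated high fat libraries share those 4 libraries, so their results below are not independent of each other.

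**Figure D1:**
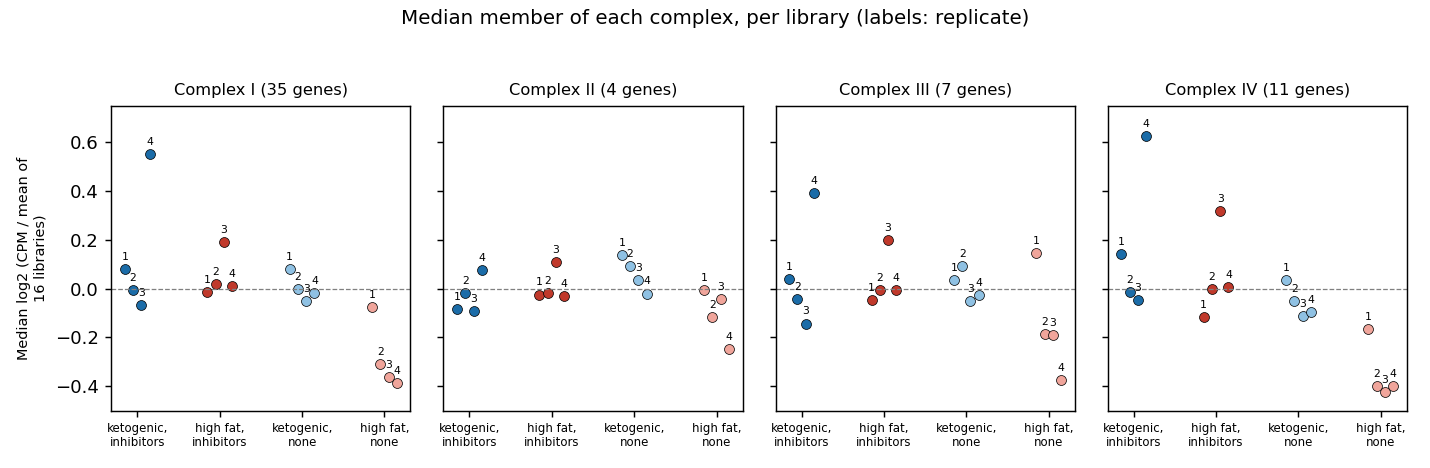
Median over the genes of each complex of log2 CPM relative to the mean of the 16 libraries (y axis), 1 point per library, labelled with its replicate number, in the 4 groups (x axis). For complex I, the untreated high fat libraries lie between -0.39 and -0.08, and ketogenic replicate 4 with inhibitors lies at 0.55, above all others.

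The first comparison asked how the chain's genes differed on the high fat diet between metastases under the inhibitors and untreated ones. With inhibitors, 28 of 57 members rose and 2 fell. The median log2 fold change was 0.27, against -0.03 over all genes tested. Complex I (19 of 35 higher, 1 lower, median 0.40) and complex IV (6 of 11 higher, median 0.50) held most of the rises, while 1 of 4 genes of complex II and 2 of 7 of complex III rose and 1 of complex III fell. Over all genes tested, 20.6% rose and 21.7% fell. Groups did not overlap for 27 members higher and 2 lower, against 22.5% and 22.2% of all genes.

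**Figure D2:**
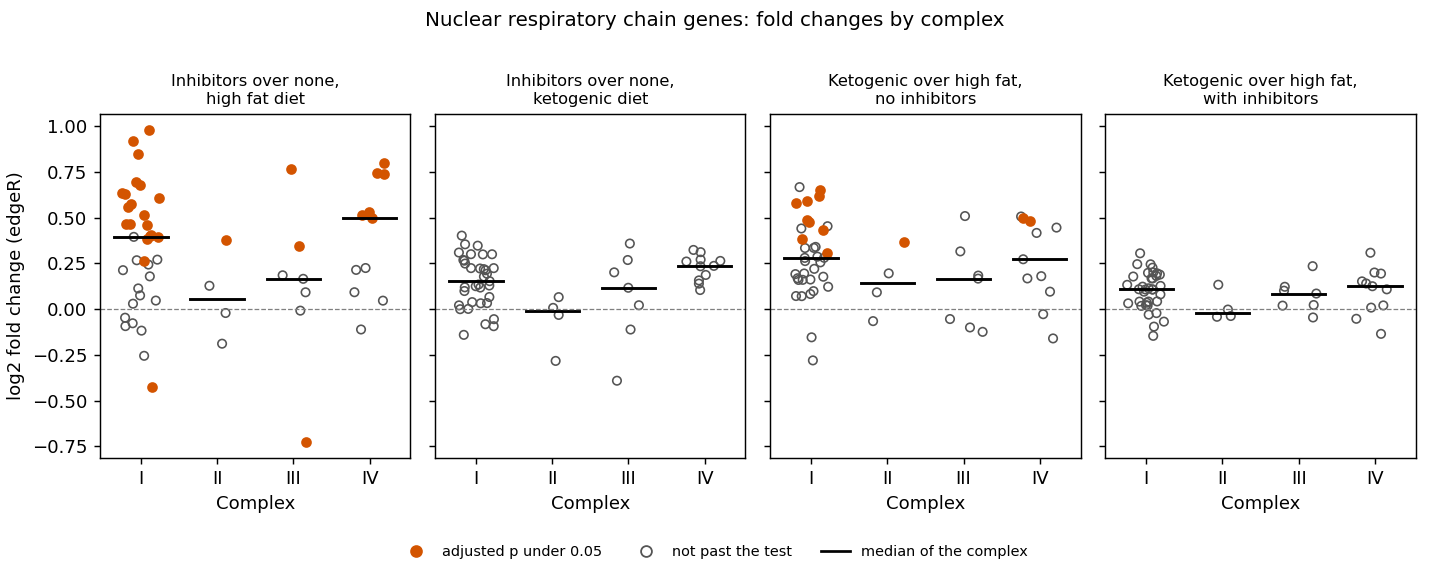
log2 fold change of each member (y axis, edgeR) in complexes I to IV (x axis) in 4 comparisons, with filled points for adjusted p under 0.05 and a bar at the median of the complex. Rises on the high fat diet reach 0.98 in complex I, and the lowest point there is UQCRC2 of complex III at -0.73.

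In complex I, the N module had 5 of 10 genes higher and 1 lower, the Q module 2 of 5 higher, the proximal arm 5 of 8 and the distal arm 6 of 11, and the acyl carrier NDUFAB1 rose as well. NDUFC2, an accessory subunit of the proximal arm (chromosome 11, 78068304 to 78080219), had 88.8, 94.8, 104 and 91.5 CPM with inhibitors, against 62.5, 50.6, 44.7 and 42.7 CPM in untreated high fat libraries (log2 0.92, SE 0.14, edgeR adjusted p = 0.000151). Ketogenic libraries had 75.9, 77.7, 78.2 and 111 CPM with inhibitors and 86.5, 81.8, 73.9 and 65.9 CPM without. The 4 untreated high fat libraries were thus the lowest of the 16. NDUFS6, a zinc-binding accessory subunit of the N module (chromosome 5, 1801400 to 1816605), had 63.1, 69.1, 75.1 and 67.2 CPM with inhibitors, against 44.8, 35.02, 34.8 and 38.02 CPM in untreated high fat libraries (log2 0.85, SE 0.16, edgeR adjusted p = 0.000676). In ketogenic libraries it had 61.9, 59.6, 59.1 and 97.2 CPM with inhibitors and 71.8, 61.1, 60.6 and 46.2 CPM without. Its untreated high fat values again lay below all 12 others, and ketogenic replicate 4 with inhibitors was the highest. NDUFB2, an accessory subunit of the distal arm (chromosome 7, 140690777 to 140722790), had the largest rise of the 57, with 55.3, 70.9, 91.7 and 70.3 CPM, against 43.9, 33.2, 28.4 and 40.5 CPM in untreated high fat libraries (log2 0.98, SE 0.22, edgeR adjusted p = 0.00233). Its ketogenic libraries had 57.01, 62.1, 61.1 and 116 CPM with inhibitors and 64.5, 63.4, 57.6 and 46.4 CPM without. Part of the counts of NDUFC2 and NDUFB2 were shared with other rows, since they were not whole numbers in 16 and 15 libraries.

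The other genes of complex I that rose had log2 fold changes between 0.26 and 0.69. Among them were 2 of the subunits that carry iron-sulfur clusters, NDUFV2 with 0.58 and NDUFS1, the largest subunit of the N module, with 0.26. The rest were NDUFA6 and NDUFA12 of the N module, NDUFA5 and NDUFA9 of the Q module, NDUFA1, NDUFA8, NDUFS5 and NDUFC1 of the proximal arm, NDUFB3, NDUFB6, NDUFB7, NDUFB8 and NDUFB10 of the distal arm, and NDUFAB1, which also serves mitochondrial fatty acid synthesis. With 1 library left out in turn, NDUFS1 and NDUFB8 missed the threshold in 6 of 8 fits, NDUFA8 in 5, NDUFA1 in 4, NDUFA6 in 2 and NDUFB10 in 1, as did COX7A2 of complex IV in 2, and the groups overlapped for NDUFA8 and NDUFB8. NDUFV3, an accessory subunit at the NADH-binding end (chromosome 21, 42879644 to 42913304), was the single gene of complex I that fell. It had 20.1, 18.5, 18.6 and 19.2 CPM with inhibitors, against 27.8, 21.5, 23.5 and 29.9 CPM in untreated high fat libraries (log2 -0.43, SE 0.12, edgeR adjusted p = 0.0087), with no overlap. Its ketogenic libraries had 22.7, 20.4, 20.2 and 27.3 CPM with inhibitors and 21.03, 21.1, 19.3 and 23.1 CPM without. The untreated ketogenic values overlapped both high fat groups, and those with inhibitors overlapped the untreated high fat group alone. NDUFB5 of the distal arm had the third lowest fold change, with 54.6, 52.97, 61.2 and 53.3 CPM against 75.3, 62.9, 68.2 and 58.8 CPM in untreated high fat libraries, and overlapping groups (log2 -0.26, SE 0.11, edgeR adjusted p = 0.0708). The other 14 genes of complex I that did not pass the test were NDUFV1, which binds NADH and flavin, NDUFS4, NDUFA2 and NDUFA7, the Q module's core subunits NDUFS3, NDUFS7 and NDUFS8, NDUFA3, NDUFA10 and NDUFA13, and NDUFB1, NDUFB4, NDUFB9 and NDUFB11. With NDUFB5, their log2 fold changes ran from -0.26 to 0.40.

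In complex II, which is also succinate dehydrogenase of the citric acid cycle, SDHC rose. This membrane anchor (chromosome 1, 161314257 to 161375340) had 181, 191, 187 and 184 CPM with inhibitors, against 143, 137, 144 and 148 CPM in untreated high fat libraries (log2 0.38, SE 0.08, edgeR adjusted p = 0.00241). Ketogenic libraries had 162, 206, 176 and 177 CPM with inhibitors and 198, 193, 176 and 170.4 CPM without, all above the untreated high fat ones. The flavoprotein SDHA had a log2 fold change of -0.19, the iron-sulfur subunit SDHB 0.13 and the other anchor SDHD -0.02, and none of these passed the test (SE 0.10, 0.11 and 0.08).

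Complex III held changes in both directions. UQCRC2, the core 2 protein (chromosome 16, 21952660 to 21983660), had 111, 117, 104 and 96.3 CPM with inhibitors, against 192, 181, 199.6 and 136 CPM in untreated high fat libraries (log2 -0.73, SE 0.12, edgeR adjusted p = 0.000265), the largest fall of the 57. Ketogenic libraries had 143, 124, 118 and 119 CPM with inhibitors and 163, 156, 151 and 191 CPM without. Both inhibitor groups thus lay at the low end, apart from 1 untreated high fat library at 136 CPM. UQCRQ, a small accessory subunit (chromosome 5, 132866560 to 132868031), had 86.9, 96.1, 132 and 95.9 CPM with inhibitors, against 66.3, 57.9, 57.05 and 60.1 CPM in untreated high fat libraries (log2 0.77, SE 0.17, edgeR adjusted p = 0.00207). Its ketogenic libraries had 93.2, 96.8, 88.3 and 162 CPM with inhibitors and 90.05, 92.5, 84.8 and 76.1 CPM without. The untreated high fat libraries were the lowest 4 of 16 for UQCRQ. UQCRFS1, the Rieske iron-sulfur protein (chromosome 19, 29205321 to 29213541), had 86.4, 86.6, 91.6 and 84.9 CPM with inhibitors, against 76.04, 68.05, 69.4 and 61.6 CPM in untreated high fat libraries (log2 0.35, SE 0.10, edgeR adjusted p = 0.0146). In ketogenic libraries it had 75.7, 80.4, 77.97 and 105 CPM with inhibitors and 81.8, 86.3, 72.2 and 71.9 CPM without, overlapping both high fat groups. UQCRC1, CYC1 (cytochrome c1), UQCRB and UQCRH did not pass the test, with log2 fold changes from -0.01 to 0.18.

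UQCRC1 and UQCRC2 form the core of complex III together. The ratio of UQCRC2 to UQCRC1 in CPM was 0.938, 0.876, 0.823 and 0.580 in ketogenic libraries with inhibitors and 0.686, 0.727, 0.674 and 0.612 in high fat libraries with inhibitors. It was 0.931, 0.827, 0.972 and 1.09 in untreated ketogenic libraries and 1.21, 1.2003, 1.44 and 1.25 in untreated high fat libraries. The means were 0.804 ± 0.157, 0.675 ± 0.0476, 0.955 ± 0.110 and 1.27 ± 0.112 (SD, n = 4 each) in that order. The untreated high fat libraries had the 4 highest ratios, and UQCRC2 was the more abundant of the 2 by CPM in them and in 1 other library. The ratio was not tested.

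In complex IV, NDUFA4, once assigned to complex I and now known as a subunit of complex IV (chromosome 7, 10931951 to 10940256), had 106, 125, 189 and 135 CPM with inhibitors, against 88.7, 78.2, 80.7 and 71.2 CPM in untreated high fat libraries (log2 0.80, SE 0.16, edgeR adjusted p = 0.00113). Ketogenic libraries had 123, 129, 120.3 and 186 CPM with inhibitors and 123, 109, 114 and 104 CPM without. COX6C, a small structural subunit (chromosome 8, 99873200 to 99894062), had 57.02, 62.8, 108 and 66.2 CPM with inhibitors, against 52.3, 39.9, 39.5 and 43.5 CPM in untreated high fat libraries (log2 0.75, SE 0.18, edgeR adjusted p = 0.00361). High fat replicate 3 with inhibitors was the highest of the 16 for both, and the untreated high fat libraries were the lowest 4. COX6C had 62.5, 64.97, 53.9 and 86.3 CPM in ketogenic libraries with inhibitors and 67.3, 63.3, 62.6 and 55.7 CPM in untreated ones. COX7B (log2 0.74), COX6A1 (0.53), COX7A2 (0.52) and COX8A (0.50) rose too. COX4I1, a regulatory subunit, COX5A, COX5B, COX6B1 and COX7C did not pass the test, with log2 fold changes from -0.11 to 0.22. Subunits that hold a flavin, an iron-sulfur cluster or a heme, 11 across complexes I to III, had 4 rises, 0 falls and a median log2 of 0.13, against 24 rises, 2 falls and a median of 0.40 for the 46 others. This split was made with the values known, and it has no test.

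**Figure D3:**
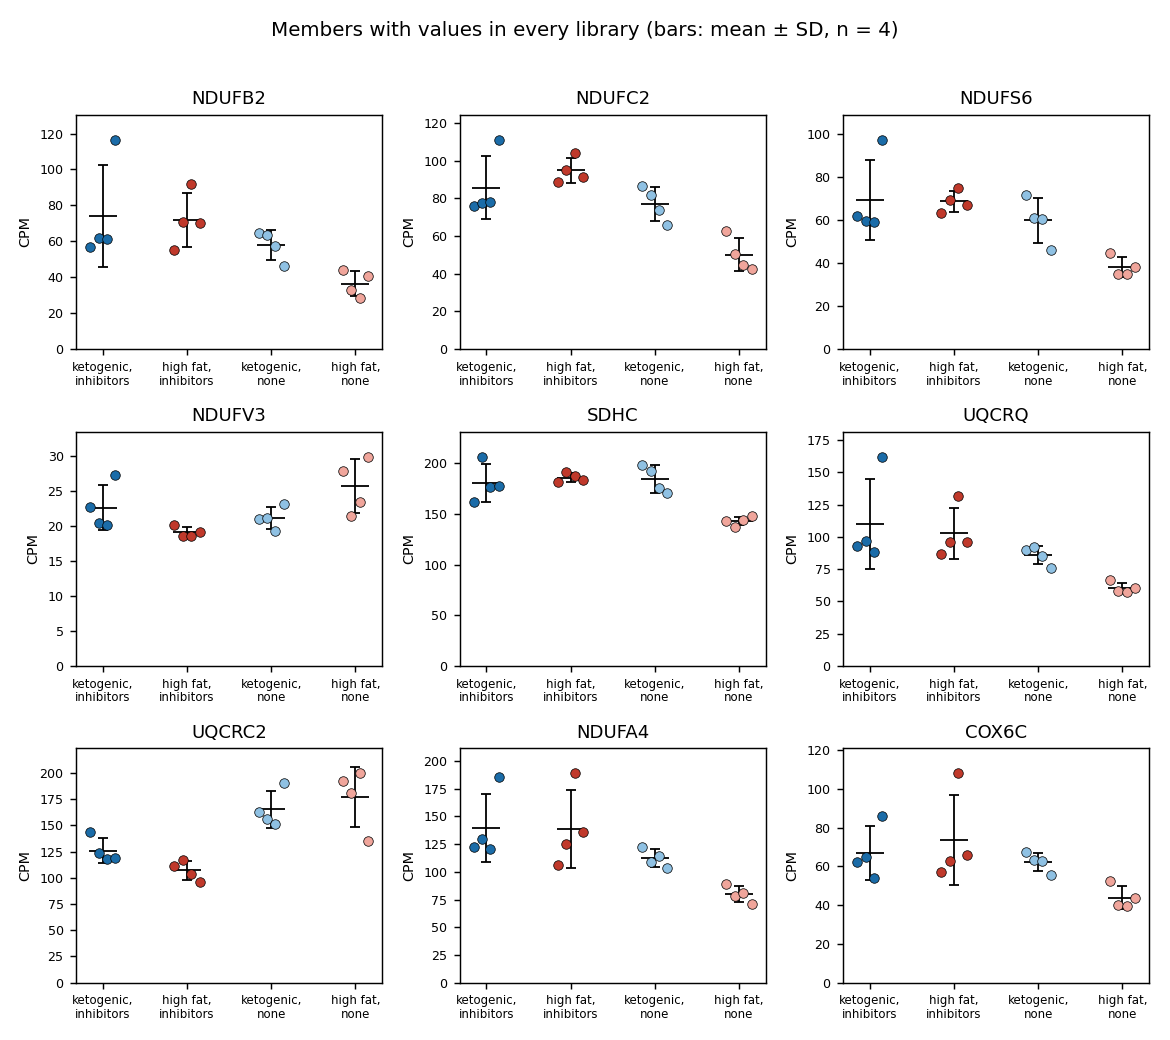
CPM (y axis) of 9 members in each library of the 4 groups (x axis), with the mean ± SD of 4 libraries. The untreated high fat libraries are the lowest for 7 of the 9, while NDUFV3 and UQCRC2 were lower with inhibitors than without on the high fat diet.

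Without the 3 libraries with over 30% ribosomal RNA, 2 of them untreated high fat, 11 members were higher and 2 lower, and over all genes 1750 were higher and 2108 lower. The members' median log2 fold change was then 0.24, with 44 of 57 positive, against 46 in the full set. With the log2 share of ribosomal RNA as a covariate the counts were 22 and 2, with 2417 and 2429 over all genes. Scaling by library size alone moved the median of all genes to 0.25 and gave 38 members higher and 1 lower, with 4856 genes higher and 1231 lower over all genes in place of 3295 and 3476. Without untreated high fat replicate 4, 4 members were lower in place of 2, with 3391 lower over all genes. Without high fat replicate 3 with inhibitors 22 members were higher and 2 lower, with 2752 and 2819 over all genes. Without untreated high fat replicate 1 the counts were 28 and 2, with 2876 and 2927 over all genes. The 6 endothelial markers summed to 71.8 to 82.1 CPM with inhibitors, against 16.7 to 35.8 CPM in untreated high fat libraries, with KDR at a mean of 75.1 CPM with inhibitors and 21.8 CPM in untreated high fat libraries, while PECAM1, CDH5 and VWF averaged 0.709, 0.00634 and 0.296 CPM over the 16 libraries. KDR thus held most of the sum in both groups. Of the 4 endothelial genes tested 1 rose. Host cells are mouse cells and the treatment of mouse reads is not given, so this sum of human genes does not measure host endothelium. A part of such cells in the results was not tested.

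On the ketogenic diet, the comparison of inhibitors with no inhibitors gave 0 members higher and 0 lower by edgeR, against 0.856% and 0.887% of all genes. At an unadjusted p under 0.05 there were 6 of 57 members, against 2995 of 16012 genes. DESeq2 called 0 members higher and 1 lower, against 439 and 441 genes. The median log2 fold change was 0.16, against 0.01 over all genes, and it was 0.0040 without ketogenic replicate 4 with inhibitors. Groups did not overlap for 0 members higher, against 5.26% of all genes, and for 2 lower (UQCRC2 and SDHA), against 5.01%. By complex, the medians were 0.15 for complex I, -0.01 for complex II, 0.12 for complex III and 0.24 for complex IV, whose 11 genes all had positive fold changes. Scaling by library size alone moved the median of all genes to 0.28, with 916 genes higher and 65 lower in place of 137 and 142, and gave 3 members higher.

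UQCRC2 had the smallest p of the members here (log2 -0.39, SE 0.12, edgeR adjusted p = 0.0978), and its 4 values with inhibitors, given above, lay below its 4 untreated ketogenic values. SDHA, the flavoprotein of complex II, had 118, 113, 113 and 114 CPM with inhibitors, against 145, 129.6, 137 and 145 CPM in untreated ketogenic libraries (log2 -0.28, SE 0.10, edgeR adjusted p = 0.148). It had 124, 117, 107 and 110.1 CPM in high fat libraries with inhibitors and 151, 135, 133 and 103 CPM in untreated ones, which overlapped. Its counts were not whole in 16 libraries, and the table also lists the pseudogenes SDHAP1, SDHAP2 and SDHAP3. NDUFAB1, the acyl carrier, had the smallest p in complex I, with 68.3, 71.4, 73.3 and 104 CPM with inhibitors, against 63.9, 71.6, 63.9 and 57.9 CPM in untreated ketogenic libraries (log2 0.30, SE 0.12, edgeR adjusted p = 0.207). Replicate 4 was the highest and the groups overlapped. COX5B, a zinc-binding subunit of complex IV, had 96.99, 90.1, 79.5 and 144 CPM with inhibitors, against 89.1, 83.8, 76.8 and 78.5 CPM in untreated ketogenic libraries (log2 0.32, SE 0.15, edgeR adjusted p = 0.272), again with replicate 4 far above the other 3.

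The highest fold changes were those of NDUFB1, UQCRQ and NDUFB2. NDUFB1, a distal arm subunit, had 24.9, 21.4, 17.7 and 31.9 CPM with inhibitors, against 18.99, 17.6, 18.8 and 17.1 CPM in untreated ketogenic libraries (log2 0.40, SE 0.18, edgeR adjusted p = 0.233). UQCRQ (log2 0.36, SE 0.17, edgeR adjusted p = 0.262) and NDUFB2 (log2 0.35, SE 0.22, edgeR adjusted p = 0.4) had the values given above. In all of these replicate 4 with inhibitors was the highest, and none passed the test. NDUFS1 had the third lowest fold change after UQCRC2 and SDHA, with 67.8, 88.7, 85.1 and 68.9 CPM with inhibitors, against 84.3, 95.2, 82.4 and 80.3 CPM in untreated ketogenic libraries (log2 -0.14, SE 0.09, edgeR adjusted p = 0.446). In high fat libraries NDUFS1 had 79.3, 83.2, 84.6 and 84.6 CPM with inhibitors, against 65.5, 71.3, 67.7 and 72.2 CPM in untreated ones.

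Between the diets without inhibitors, 12 members were higher on the ketogenic diet and 0 lower, against 7.99% and 5.51% of all genes. The 12 were 9 of complex I, SDHC of complex II, and NDUFA4 and COX8A of complex IV, and none of complex III. The median log2 fold change was 0.26, against -0.02 over all genes, and 49 of 57 were positive. Groups did not overlap for 24 members higher and 0 lower, against 13.3% and 12.2% of all genes. At an unadjusted p under 0.05 there were 25 of 57 members, against 4909 of 16012 genes.

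NDUFV2, a core subunit of the N module with an iron-sulfur cluster (chromosome 18, 9102630 to 9134345), had the smallest p. It had 106, 102, 94.1 and 92.5 CPM in untreated ketogenic libraries, against 68.4, 66.9, 62.5 and 65.7 CPM in untreated high fat libraries (log2 0.58, SE 0.11, edgeR adjusted p = 0.00563). With inhibitors it had 93, 105, 91.8 and 139 CPM in ketogenic and 91.5, 102, 106 and 93.8 CPM in high fat libraries. The 4 untreated high fat values were the lowest of the 16. NDUFC2 (log2 0.62, SE 0.14, edgeR adjusted p = 0.0102), NDUFS6 (log2 0.65, SE 0.16, edgeR adjusted p = 0.0145) and SDHC (log2 0.37, SE 0.08, edgeR adjusted p = 0.0117) were higher on the ketogenic diet too, with the values given above and no overlap. COX8A, a small subunit of complex IV, had 139.6, 135, 119.7 and 122 CPM in untreated ketogenic libraries, against 109, 93.6, 88.4 and 78.4 CPM in untreated high fat libraries (log2 0.48, SE 0.14, edgeR adjusted p = 0.0323). With inhibitors COX8A had 134, 118, 119.6 and 196 CPM in ketogenic and 125, 132, 139 and 126 CPM in high fat libraries, so its untreated high fat libraries were again the lowest 4. NDUFA4 was at the edge of the threshold (log2 0.50, SE 0.16, edgeR adjusted p = 0.0498). With 1 library left out in turn, NDUFA4 missed it in 7 of 8 fits, COX8A in 5 and NDUFS6 in 1, while NDUFV2, NDUFC2 and SDHC passed in all 8.

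The other genes of complex I past this test were NDUFS1, NDUFA12, NDUFA9, NDUFS5, NDUFC1 and NDUFB6, with log2 fold changes from 0.31 to 0.59. With 1 library left out in turn, NDUFA12 missed the threshold in 7 of 8 fits, NDUFS1 in 6, NDUFS5 in 5, NDUFA9 in 2 and NDUFC1 in 1, while NDUFB6 passed in all 8. NDUFB2 had the highest fold change of the 57 and missed the threshold (log2 0.67, SE 0.22, edgeR adjusted p = 0.051), as did UQCRQ, the gene of complex III with the smallest p (log2 0.51, SE 0.17, edgeR adjusted p = 0.054). The lowest fold changes were those of NDUFV3 (log2 -0.28, SE 0.12, edgeR adjusted p = 0.118), COX7C and NDUFB5 (log2 -0.15, SE 0.11, edgeR adjusted p = 0.359). NDUFB5 had 59, 57.5, 56.01 and 65.8 CPM in untreated ketogenic libraries and, with inhibitors, 74.4, 62.01, 52.3 and 71.1 CPM in ketogenic ones. COX7C, a small subunit of complex IV, had 136, 122, 131 and 148 CPM in untreated ketogenic libraries, against 167, 139, 155 and 138 CPM in untreated high fat libraries (log2 -0.16, SE 0.16, edgeR adjusted p = 0.518). These 3 did not pass the test and their groups overlapped.

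Without the 3 libraries with over 30% ribosomal RNA, 0 of 16367 genes passed the test in either direction, members included, while the members' median log2 fold change was 0.18 and 49 of 57 stayed positive. With that share as a covariate 9 members were higher, with limma voom 31 and with the 8 libraries of this comparison alone 25. Over all genes these fits had 1070, 3154 and 1870 higher, in that order, against 1280 in the main fit. The count was 5 without untreated ketogenic replicate 1 or without replicate 2, with 618 and 514 genes higher over all genes. It was 7 without untreated high fat replicate 2 or without replicate 3, with 981 and 677 over all genes. It was 9 without untreated high fat replicate 1, with 926 over all genes. Scaling by library size alone moved the median of all genes to 0.15, with 1505 genes higher and 142 lower in place of 1280 and 883, and gave 17 members higher. Of the 4 endothelial genes tested 0 passed the test here.

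With inhibitors in both groups, 0 members were higher and 0 lower on the ketogenic diet by edgeR, against 0.05% and 0.119% of all genes. At an unadjusted p under 0.05 there were 2 of 57 members, against 2032 of 16012 genes. DESeq2 called 0 members, against 195 genes higher and 150 lower. The median log2 fold change was 0.11, against 0.02 over all genes, and it was -0.03 without ketogenic replicate 4. Groups did not overlap for 3 members higher (COX5A, NDUFV3 and UQCRC2), against 3.45% of all genes, and for 0 lower, against 3.68%. Scaling by library size alone moved the median of all genes to 0.19, with 0 genes higher and 1 lower in place of 8 and 19, and called 0 members.

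COX5A, a matrix-side subunit of complex IV, had 116, 110.2, 103 and 138 CPM in ketogenic libraries with inhibitors, against 89.5, 98.7, 96.5 and 92.8 CPM in high fat libraries with inhibitors (log2 0.31, SE 0.10, edgeR adjusted p = 0.219). Untreated libraries had 105, 97.9, 95.6 and 112 CPM on the ketogenic and 100.2, 92.8, 96.2 and 76.5 CPM on the high fat diet, which overlapped. NDUFA3 of the proximal arm had 15.2, 12.4, 12.1 and 16.01 CPM in ketogenic libraries with inhibitors, against 10.7, 10.5, 13.7 and 10.3 CPM in high fat ones (log2 0.31, SE 0.13, edgeR adjusted p = 0.345). The high fat replicate 3 overlapped the ketogenic range for NDUFA3. NDUFV3 (log2 0.25, SE 0.12, edgeR adjusted p = 0.4) and UQCRC2 (log2 0.23, SE 0.12, edgeR adjusted p = 0.423), the 2 genes that fell with inhibitors on the high fat diet, were higher in every ketogenic than in every high fat library with inhibitors, without passing the test. SDHB, the iron-sulfur subunit of complex II, had 104, 104, 101 and 146 CPM in ketogenic libraries with inhibitors, against 93.6, 107, 114 and 100.3 CPM in high fat ones (log2 0.13, SE 0.11, edgeR adjusted p = 0.653). The lowest fold changes were those of NDUFC2 (log2 -0.15, SE 0.14, edgeR adjusted p = 0.695), COX6C (log2 -0.14, SE 0.18, edgeR adjusted p = 0.798) and NDUFS1 (log2 -0.10, SE 0.09, edgeR adjusted p = 0.711), whose groups overlapped.

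The difference of the inhibitor effects, ketogenic minus high fat, tested whether the 2 diets' responses differed. By edgeR 0 members had a higher and 2 a lower difference, against 4.36% and 4.66% of all genes. At an unadjusted p under 0.05 there were 12 of 57 members, against 4560 of 16012 genes. The 2 were NDUFC2 (log2 -0.77, SE 0.20, edgeR adjusted p = 0.0283) and SDHC (log2 -0.41, SE 0.12, edgeR adjusted p = 0.0438). For NDUFC2 the inhibitor effect was 0.92 on the high fat and 0.15 on the ketogenic diet, and for SDHC 0.38 and -0.03. NDUFC2 missed the threshold in 7 and SDHC in 12 of the 16 fits that left out 1 library. The median over the members was -0.15, against 0.03 over all genes, and 19 of 57 differences were positive.

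COX6C (log2 -0.64, SE 0.25, edgeR adjusted p = 0.109) and NDUFS6 (log2 -0.63, SE 0.22, edgeR adjusted p = 0.0788) had the lowest differences after NDUFC2, below that of SDHC. NDUFV3 (log2 0.53, SE 0.17, edgeR adjusted p = 0.0566), NDUFB5 (log2 0.38, SE 0.16, edgeR adjusted p = 0.123) and UQCRC2 (log2 0.34, SE 0.17, edgeR adjusted p = 0.201) had the 3 highest, and none of these 5 passed the test. So for most members, a rise on the high fat diet and the lack of a call on the ketogenic diet is not shown to be a difference between diets. The count of lower differences was 18 without ketogenic replicate 4 with inhibitors, with 1410 lower over all genes. It was 5 without untreated ketogenic replicate 4, with 1051 lower over all genes. It was 0 without high fat replicate 2, 3 or 4 with inhibitors, without untreated high fat replicate 3, without untreated ketogenic replicate 1 or 2, and without ketogenic replicate 1 with inhibitors. It was 1 without untreated high fat replicate 1 or 2, without high fat replicate 1 with inhibitors, and without untreated ketogenic replicate 3. Over all genes, the fits with 0 had 204 to 360 lower, and those with 1 had 393 to 699 lower. The number of higher differences was 1 without untreated high fat replicate 2, untreated ketogenic replicate 4 or ketogenic replicate 2 with inhibitors. It was 2 without ketogenic replicate 3 with inhibitors. Over all genes these numbers were 498, 1093, 788 and 927, in that order.

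**Figure D4:**
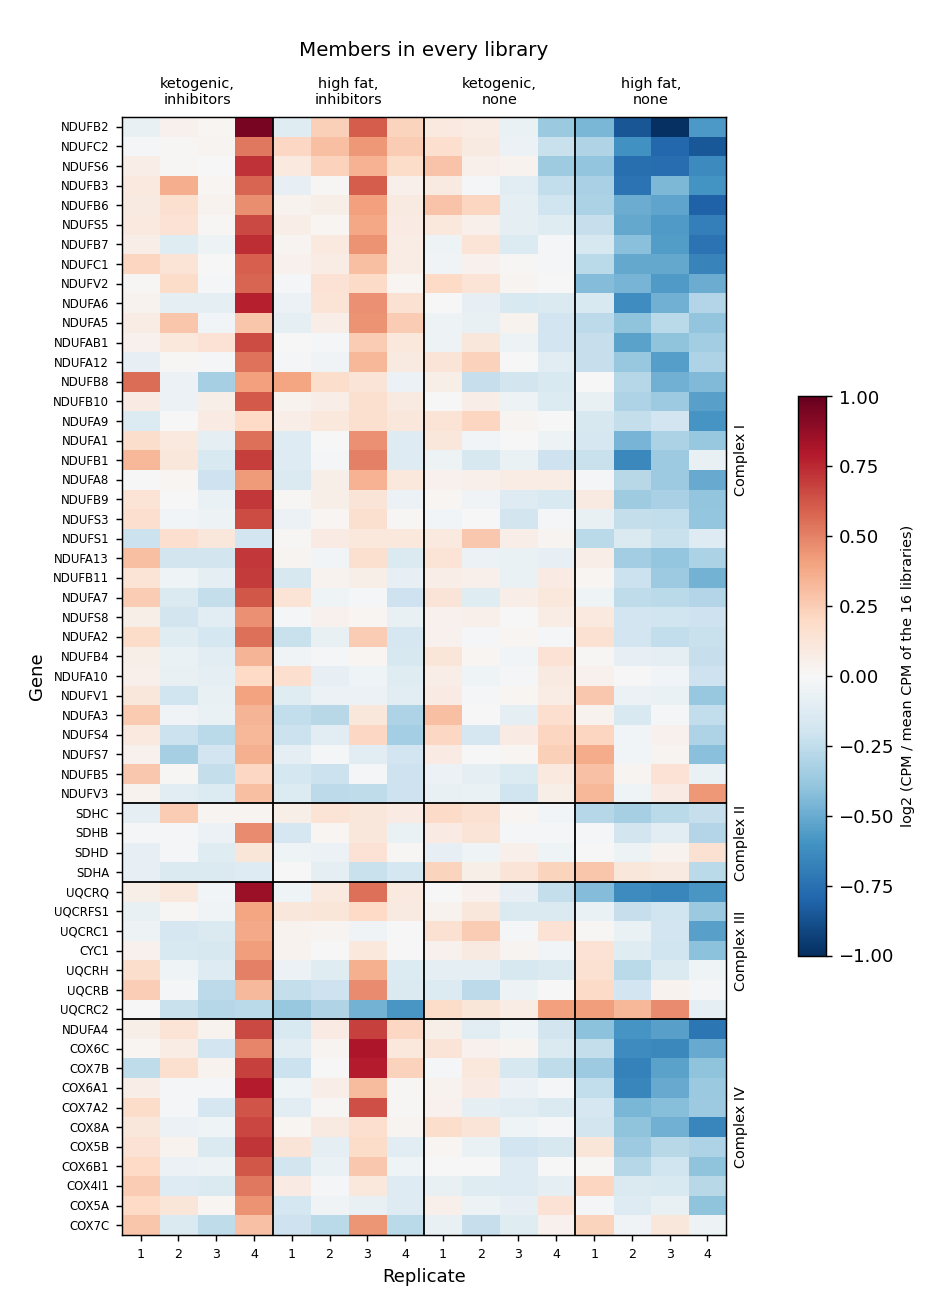
log2 of CPM over the mean CPM of the 16 libraries (colour) for the 57 members (rows, by complex) in each replicate of the 4 groups (columns). Ketogenic replicate 4 with inhibitors is the highest of all libraries for 39 members, and untreated high fat replicate 4 the lowest of all for 27.

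The rest of the respiratory system was looked at through 9 lists of 125 entries, of which 110 were in the table and 103 were tested. None of the 15 mitochondrially encoded genes listed was in the table, so nuclear and mitochondrial subunits were not compared. The counts of these lists with inhibitors on the high fat diet stand beside 20.6% of all genes higher and 21.7% lower. ATP synthase had 8 of 18 genes higher and 0 lower, led by ATP5MC3 (log2 0.80, SE 0.14, edgeR adjusted p = 0.000313), a subunit of the rotor ring, ATP5PF (log2 0.77, SE 0.13, edgeR adjusted p = 0.000348) of the peripheral stalk, and ATP5MF (log2 0.81, SE 0.15, edgeR adjusted p = 0.000543). Electron carriers and ubiquinone synthesis had 5 of 17 higher and 2 lower. PDSS1, which makes the tail of ubiquinone, had the largest rise of these (log2 1.13, SE 0.16, edgeR adjusted p = 0.0001), COQ4 rose (log2 0.85, SE 0.14, edgeR adjusted p = 0.000318) and COQ5 fell (log2 -0.59, SE 0.10, edgeR adjusted p = 0.000259).

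Complex I assembly had 3 of 15 genes higher and 3 lower, shares close to those of all genes, with falls of TMEM186 (log2 -0.72, SE 0.14, edgeR adjusted p = 0.000797), ECSIT (log2 -0.73, SE 0.17, edgeR adjusted p = 0.00263) and NUBPL (log2 -0.62, SE 0.15, edgeR adjusted p = 0.0031), an iron-sulfur carrier for complex I. Complex II assembly had 1 of 4 higher and 3 lower, with SDHAF4, which helps to load SDHA, at a mean of 0.423 CPM with inhibitors, against 2.63 CPM in untreated high fat libraries (log2 -2.63, SE 0.39, edgeR adjusted p = 0.000126), SDHAF1 (log2 -0.56, SE 0.15, edgeR adjusted p = 0.0087) and SDHAF2 (log2 0.32, SE 0.11, edgeR adjusted p = 0.0247), which helps to attach flavin to SDHA. Complex III assembly had 0 of 6 higher and 4 lower, among them UQCC1 (log2 -0.72, SE 0.11, edgeR adjusted p = 0.000171), LYRM7, a chaperone of the Rieske protein (log2 -0.45, SE 0.10, edgeR adjusted p = 0.00214), and TTC19 (log2 -0.49, SE 0.12, edgeR adjusted p = 0.00496). Complex IV assembly had 8 of 24 higher and 5 lower, led by COX20 (log2 1.11, SE 0.15, edgeR adjusted p = 6.27e-05), COA3 (log2 0.62, SE 0.12, edgeR adjusted p = 0.000692) and the copper chaperone COX17 (log2 0.54, SE 0.12, edgeR adjusted p = 0.00243).

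Of the isoforms and supercomplex factors 5 of 11 were tested, with HIGD1A higher (log2 1.02, SE 0.16, edgeR adjusted p = 0.000177) and COX7A2L, which joins complexes III and IV, lower (log2 -0.33, SE 0.11, edgeR adjusted p = 0.0229). NDUFA4L2, the hypoxia-linked relative of NDUFA4, did not pass the test (log2 -1.12, SE 0.64, edgeR adjusted p = 0.165), and COX4I2, the lung isoform of COX4, had no counts in any library. Among regulators 5 of 14 tested rose and 1 fell. TFB2M (log2 0.55, SE 0.09, edgeR adjusted p = 0.000184) and TFAM (log2 0.61, SE 0.11, edgeR adjusted p = 0.000639), both needed for mitochondrial transcription, rose, and POLRMT, the mitochondrial RNA polymerase, fell (log2 -0.49, SE 0.11, edgeR adjusted p = 0.00179). NRF1 (log2 0.21, SE 0.12, edgeR adjusted p = 0.159), ESRRA (log2 -0.31, SE 0.14, edgeR adjusted p = 0.0868) and PPARGC1A (log2 -1.70, SE 0.80, edgeR adjusted p = 0.0941) did not pass the test. PPARGC1A was low, with 0, 0.220, 0.0958 and 0.407 CPM with inhibitors, against 0.806, 0.498, 0.838 and 0.245 CPM in untreated high fat libraries.

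On the ketogenic diet, inhibitors changed 3 of the 103 related genes, all regulators, against 0.856% of all genes higher and 0.887% lower. With the share of ribosomal RNA as a covariate 0 genes of the whole table passed the test in this comparison, these 3 included. The shares of the groups compared did not overlap, so that fit cannot tell the share and the inhibitors apart. PPARGC1A fell, with 0.0491, 0.120, 0.0439 and 0.139 CPM, against 0.634, 2.71, 0.253 and 1.07 CPM in untreated ketogenic libraries (log2 -3.68, SE 0.87, edgeR adjusted p = 0.04), TFB1M fell (log2 -0.55, SE 0.12, edgeR adjusted p = 0.0307) and TFB2M rose (log2 0.35, SE 0.09, edgeR adjusted p = 0.0441). All 4 PPARGC1A values with inhibitors were below the untreated ones and under 1 CPM. NRF1 (log2 -0.01, SE 0.12, edgeR adjusted p = 0.974), TFAM (log2 0.28, SE 0.11, edgeR adjusted p = 0.195), ESRRA (log2 0.07, SE 0.14, edgeR adjusted p = 0.844) and NDUFA4L2 (log2 0.26, SE 0.64, edgeR adjusted p = 0.866) did not pass the test.

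Between untreated diets, where 7.99% of all genes were higher and 5.51% lower, ATP synthase had 4 of 18 genes higher on the ketogenic diet, led by ATP5MF (log2 0.65, SE 0.15, edgeR adjusted p = 0.0102), ATP5MC3 (log2 0.57, SE 0.13, edgeR adjusted p = 0.0123) and ATP5PF (log2 0.44, SE 0.13, edgeR adjusted p = 0.0365). Carriers and ubiquinone synthesis had 3 of 17 higher, PDSS1 (log2 0.69), COQ2 (1.11) and COQ3 (0.46), and complex IV assembly 3 of 24 higher, COX20 (log2 0.76), COX17 (0.54) and PNKD (0.49). Complex I assembly had 1 of 15 higher (FOXRED1, log2 0.54) and 1 lower (TMEM186, log2 -0.57), close to the share of all genes, and complex III assembly 1 of 6 lower, UQCC1 (log2 -0.54, SE 0.11, edgeR adjusted p = 0.00707). Without the 3 libraries with over 30% ribosomal RNA, 0 genes of any list passed the test here. None of the 14 regulators passed the test, with log2 fold changes of 0.22 for TFAM, 0.25 for NRF1, -0.36 for ESRRA and 0.97 for PPARGC1A, and NDUFA4L2 had -1.11. With inhibitors in both diets, 0 of the 103 passed the test, and these 5 genes had -0.10, 0.03, 0.02, -1.01 and 0.27 in the same order.

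The difference of inhibitor effects passed the test for 5 of the 103 related genes, against 4.36% of all genes higher and 4.66% lower, and without the 3 libraries with over 30% ribosomal RNA for 0 genes of the whole table. It was lower for PDSS1 (log2 -0.88, SE 0.23, edgeR adjusted p = 0.0295) and higher for TMEM186 (log2 0.77, SE 0.19, edgeR adjusted p = 0.0266), SDHAF4 (log2 2.08, SE 0.53, edgeR adjusted p = 0.027), LYRM7 (log2 0.55, SE 0.14, edgeR adjusted p = 0.0297) and UQCC1 (log2 0.54, SE 0.16, edgeR adjusted p = 0.0423). It was -0.32 for TFAM, -0.22 for NRF1, 0.38 for ESRRA, -1.98 for PPARGC1A and 1.38 for NDUFA4L2, none past the test. TMEM186 and UQCC1 take part in the assembly of complexes I and III.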

How the data were processed

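Poly-A RNA of 16 libraries was analysed, 4 in each of 4 groups. The authors deposited estimated counts per gene, not scaled for depth; per the submitters' processing notes Bowtie2 2.1.0, RSEM 1.2.15 and hg38 were used, in roles not stated there. Strand setting, annotation and treatment of mouse reads are not given. Of the deposited expected counts, 13.0% were not whole, and all were rounded. NDUFC2, NDUFB2, SDHA, UQCRB and UQCRH share reads with other rows, and NDUFA6, NDUFB2 and NDUFV2 have antisense genes in the table whose reads cannot be told apart without strand.

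After filterByExpr over the 4 groups and TMM scaling, all 16 libraries entered 1 model of group means in edgeR 4.0.16 (R 4.3.3, robust quasi-likelihood). Tests were two-sided, with Benjamini-Hochberg adjustment over the 16012 genes tested and a threshold of 0.05. The common biological coefficient of variation was 0.228, and SE is the standard error of a log2 fold change. The procedure was tested on simulated counts. As alternatives, RLE factors or plain library size, DESeq2 1.42.0, limma 3.58.1 voom with quality weights, looser and stricter low-count filters, fits to the compared libraries alone, a replicate block, ribosomal RNA genes removed or their share as a covariate, the omission of libraries over 30% ribosomal RNA, and the omission of each library in turn were tried.

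The members and lists were chosen with earlier results of these data known. Values in every library are given for members past the test with the 2 smallest p in each complex and direction (else the 1 smallest p), and for the 3 highest and 3 lowest fold changes; other members are named in counts. For other lists at most 3 genes are named by smallest p, besides NDUFA4L2, COX4I2, PPARGC1A, NRF1, TFAM and ESRRA, which are given in any case. Coordinates, 1-based, follow GENCODE 29 on GRCh38, and a transcript length is the median of a gene's basic protein-coding transcripts. Promoters are from RefSeq, GRCh38.p14.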

Additional observations from a re-analysis of the deposited data

Results flagged for a closer look

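In each group of 4 libraries, the gap between an extreme library and its nearest neighbour was set against the range of the group for each member. Of 228 such groups 33 had a gap above the Dixon 95% critical value for 4 samples, where chance flags about 5% of groups, and members that move together share their flags.

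Ketogenic replicate 4 with inhibitors held 13 of them, each as the highest library. They were NDUFS6 (97.2 CPM), NDUFA6 (48.5), NDUFA12 (48.8), NDUFS5 (124), NDUFC2 (111), NDUFB2 (116), NDUFB7 (113), NDUFAB1 (104), SDHB (146), UQCRFS1 (105), UQCRQ (162), NDUFA4 (186) and COX6A1 (214 CPM). High fat replicate 3 with inhibitors was the highest for NDUFA3 (13.7 CPM), NDUFS5 (103), NDUFC1 (35.8), NDUFB1 (28.03), NDUFB6 (60.9), NDUFB3 (41.3), NDUFB7 (92.2), UQCRB (194), UQCRH (352), COX7A2 (155) and COX7C (194 CPM).

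Untreated high fat replicate 1 was the highest for NDUFA2 (47.1 CPM), NDUFA7 (27.9), NDUFS8 (59.9), NDUFA13 (146), NDUFB9 (135) and COX5B (95.3 CPM). Among untreated ketogenic libraries, replicate 1 was the highest for NDUFA13 (153 CPM), and replicate 3 the lowest for NDUFS3 (58.6 CPM) and COX6B1 (101 CPM).

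By the test of the difference itself, the inhibitor effect differed between diets, ketogenic minus high fat, for NDUFC2 (log2 -0.77) and SDHC (log2 -0.41). They were 2 of 57 members (3.51%), against 4.66% of all genes with a lower difference. NDUFC2 missed the threshold in 7 and SDHC in 12 of the 16 fits that left out 1 library. No member passed without the libraries over 30% ribosomal RNA, and none did when the fit took that share into account.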

How the results depend on the processing

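Over all members and comparisons, results of other alternatives stayed on the same side of the threshold in 2909 cases. They passed it newly in 111 and no longer passed it in 58. With 1 library left out these were 2625, 32 and 79. None turned direction among values called in either fit, and direction was not checked where neither fit passed the threshold. Between the diets with inhibitors, 46 members had positive fold changes in the main fit. This number was 12 by voom and 14 without ketogenic replicate 4 with inhibitors. Numbers of members called are given here as higher and lower.
For inhibitors on the high fat diet (28 and 2), rises numbered 11 without the libraries over 30% ribosomal RNA, against 1750 over all genes. Falls numbered 1 by library size alone and 4 by voom, against 1231 and 5084 over all genes. Leaving out 1 library gave 22 to 28 rises and 2 to 4 falls, against 2728 to 3388 and 2718 to 3391 over all genes. The counts were 28 and 2 with DESeq2, RLE factors, the replicate block or ribosomal RNA genes removed. Over all genes these 4 fits had 3322 to 3561 rises and 3397 to 3741 falls.
For inhibitors on the ketogenic diet (0 and 0), library size alone gave 3 rises, against 916 over all genes. DESeq2 gave 1 fall and voom 2 falls, against 441 and 778 over all genes. Every single library left out gave 0 and 0, against 27 to 173 and 57 to 264 over all genes.
For ketogenic over high fat diet without inhibitors (12 and 0), rises numbered 25 with only the libraries compared and 31 by voom (with 1 fall). They numbered 0 without the libraries over 30% ribosomal RNA and 5 to 14 with 1 library left out. Over all genes these rises were 1870, 3154, 0 and 514 to 1450, in that order, and voom had 3239 falls. With the replicate block there were 10 rises, against 1308 over all genes.
With inhibitors on both diets every alternative gave 0 and 0, against 0 to 471 and 0 to 586 over all genes.
For the difference of effects (0 and 2), DESeq2 gave 1 and 7, against 1273 and 1214 over all genes. Voom gave 1 and 27, against 2509 and 2699 over all genes. The replicate block gave 1 and 1, a mean of at least 5 CPM 1 and 2, and no low-count filter 0 and 1. Over all genes these fits gave 676 and 757, 714 and 647, and 522 and 552. Library size alone, the ribosomal RNA covariate and leaving out libraries over 30% ribosomal RNA each gave 0 and 0. Over all genes these gave 95 and 143, 17 and 13, and 0 and 0. Leaving out 1 library gave 0 to 2 higher and 0 to 18 lower, against 203 to 1226 and 204 to 1410 over all genes. The fit of only the libraries compared is the fit itself here.
The causes were not tested. In the pairing check, each library's deviation from its group mean was correlated with that of libraries in the other groups. Over 24 pairs with the same replicate number r ran from -0.27 to 0.34, with 7 over 0.1. The best match had the same number in 15 of 48 combinations, each a choice among 4 libraries.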
